A study of Mus musculus with 6 samples.

Results

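The Wnt pathway was followed through 36 listed genes, covering ligands, receptors, inhibitors, intracellular transducers and feedback targets. A gene was represented by the probe set that names it alone and has the highest mean over the 6 arrays. This gave 35 of the 36 genes, out of 22180 genes tested, and Tcf7 was not analysed here. The RNA came from neurospheres, the free-floating cell clusters that neural stem cells form in culture, and was hybridised to Affymetrix Mouse Gene 2.0 ST arrays. The cells were dissected from the subependymal region of 2-month-old CD1 mice, an outbred stock, plated at 2 cells per microlitre and grown for 7 days with EGF and FGF2. In the PBS group (3 arrays) the mother had been injected with PBS, and in the MG group (3 arrays) with MG at 0.5 mg/kg. MG is read as methylglyoxal, a reactive by-product of glycolysis, from the title of the series. Both kinds of mother were injected 2 times a day from gestational day 12 to delivery, and the labels name no genetic modification in either group. The comparison asks how the prenatal injections relate to expression in adult offspring cells. The labels call the cultures primary in 1 field and secondary in another. They do not say how many animals or mothers stand behind the 3 arrays of a group, so the p-values measure only the spread between these samples.

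Wnt proteins are lipid-modified ligands that need the acyltransferase Porcupine and the carrier Wntless to leave the cell. In the canonical branch they bind Frizzled receptors with an LRP co-receptor, Dishevelled is recruited, and the Axin-APC-GSK3 complex stops marking beta-catenin for degradation. Beta-catenin then acts in the nucleus with TCF and LEF factors, and many targets, such as Axin2, Nkd1, Rnf43, Znrf3, Notum and Sp5, feed back on the pathway. In the adult subventricular zone Wnt signalling is known for its part in the proliferation of stem and progenitor cells. A separate branch, planar cell polarity, uses Frizzled with Vangl, Celsr and Prickle proteins.

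TCF and LEF factors read a short DNA core, which was searched in RefSeq promoter windows (GRCm38.p6) running from 250 bases before to 50 bases after a start site. The letters searched were CTTTG followed by any pair of A and T, on both strands, and matches on the same strand cannot overlap each other. Windows were used for 22 of the 35 genes, 28 windows in all. Any window of a Wnt gene on a certain chromosome was left out, a filter not applied to the set of all windows. A match was present in 5 of the 28 (17.9%), against 16.9% of all 32851 windows, so that the share in Wnt genes was close to that of promoters in general. Fzd7, Lef1, Sp5, Dkk1 and Tcf7l2 each had a window with a match, Lef1 and Tcf7l2 at 1 of several start sites. Shown here are the windows of 3 genes widely used as readouts of the canonical branch, 5′ to 3′ in the direction of the gene, with matches in capitals. They lie at chr11:108920099-108920398 (Axin2, plus strand), chr2:70474673-70474972 (Sp5, plus strand) and chr19:30549447-30549746 (Dkk1, minus strand).
Axin2: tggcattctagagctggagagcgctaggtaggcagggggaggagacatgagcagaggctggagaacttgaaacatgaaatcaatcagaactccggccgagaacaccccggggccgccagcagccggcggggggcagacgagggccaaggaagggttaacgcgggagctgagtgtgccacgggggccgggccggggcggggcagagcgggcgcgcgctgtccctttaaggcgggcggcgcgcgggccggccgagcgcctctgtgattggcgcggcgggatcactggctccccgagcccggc
Sp5: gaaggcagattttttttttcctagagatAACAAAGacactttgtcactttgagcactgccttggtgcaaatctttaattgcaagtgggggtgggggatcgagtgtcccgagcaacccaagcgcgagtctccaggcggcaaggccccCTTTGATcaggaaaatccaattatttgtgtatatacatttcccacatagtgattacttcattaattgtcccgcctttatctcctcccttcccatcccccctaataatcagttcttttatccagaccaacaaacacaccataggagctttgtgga
Dkk1: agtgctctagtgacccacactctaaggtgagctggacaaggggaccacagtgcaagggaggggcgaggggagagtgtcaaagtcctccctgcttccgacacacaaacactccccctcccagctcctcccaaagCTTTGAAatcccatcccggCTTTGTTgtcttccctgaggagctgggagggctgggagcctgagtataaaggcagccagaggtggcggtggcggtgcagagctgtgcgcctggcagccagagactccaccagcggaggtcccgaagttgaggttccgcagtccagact
The Sp5 window holds a match that begins 104 bases before the start site and another, on the opposite strand, 222 bases before it. In Dkk1 both matches are on the strand of the gene and begin 117 and 98 bases before the start site. At least 2 matches were found in 1.94% of all windows. Among the 28 windows of Wnt genes, only those of Sp5 and Dkk1 held that many. The Axin2 window shown holds none of these letters. A match is a description of the sequence and not a measured binding site. Axin2 and Sp5 were above the reference level described next on every array, Sp5 by little, while Dkk1 lay around it. A relation between matches and expression was not tested.

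Most Wnt pathway genes were above the reference level in these cultures. That level, 5.03 on the log2 scale, was the value that 95% of 1390 olfactory or vomeronasal receptor genes, taken as silent in these cells, did not exceed in their mean over the arrays. In all, 33 of the 35 genes had a mean above it in both groups, where 61.8% of all genes did, and 31 were above it on each of the 6 arrays, where 57.9% of all genes were. Lef1 was below it in both groups, Notum was above it only in PBS, and Dkk1 was just above it. Signals of different probe sets are not comparable as amounts of RNA, so no order of levels between genes is given. In bulk RNA, fewer cells of a type and less RNA per cell cannot be told apart.

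**Figure D1:**
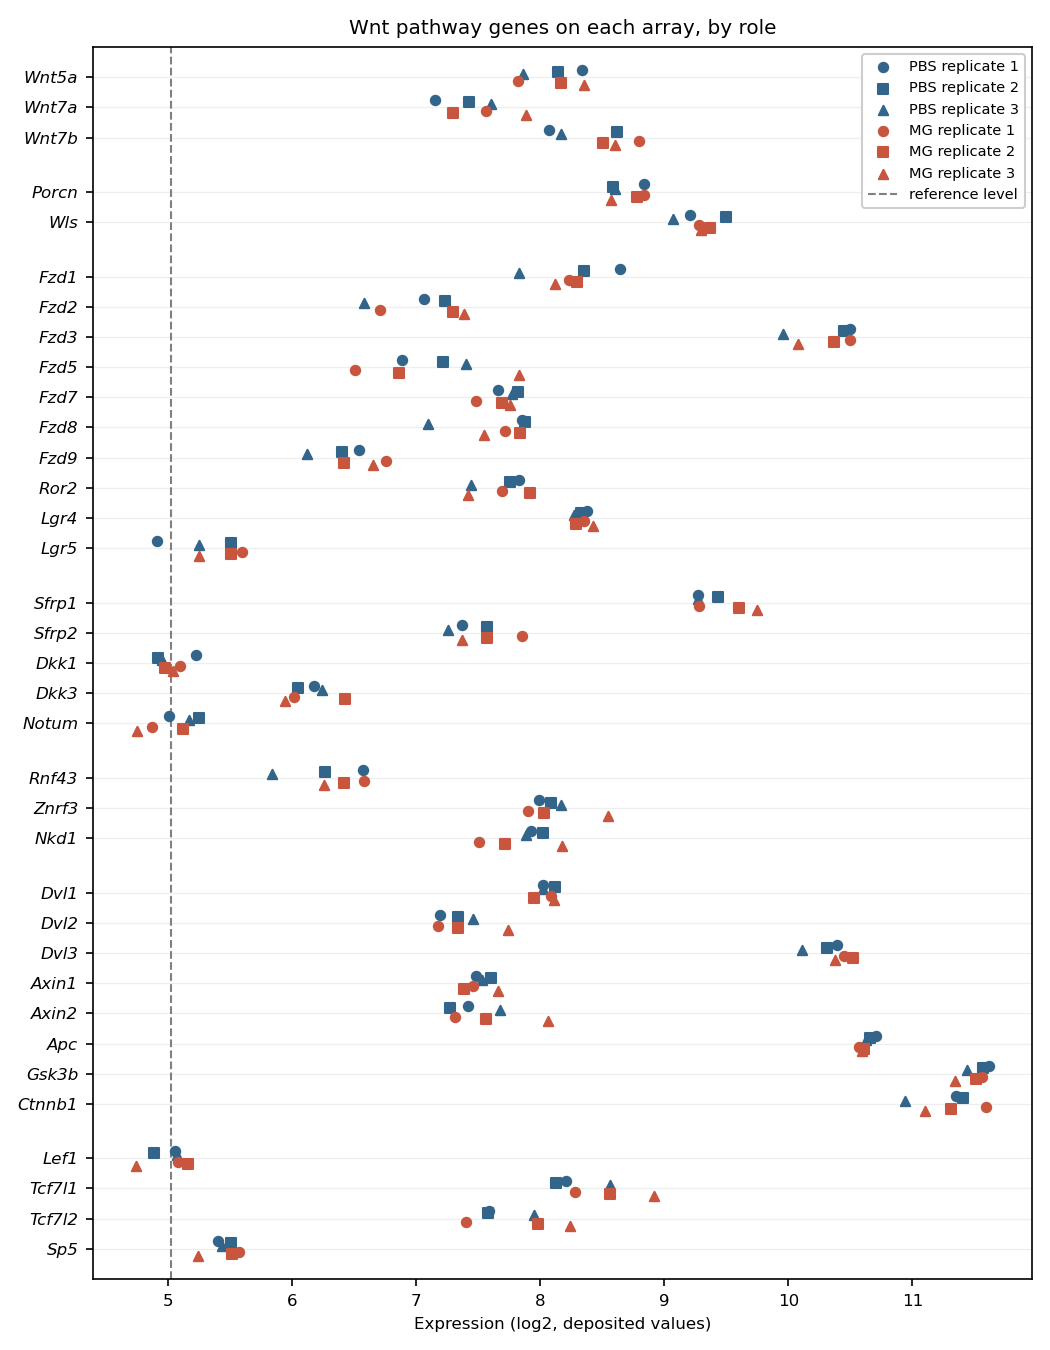
Expression of the 35 Wnt pathway genes on each array (deposited log2 values, horizontal axis), with PBS in blue and MG in red, marker shape giving the replicate number, rows grouped by role, and the dashed line marking the reference level of 5.03. The 3 MG values and the 3 PBS values overlap in every gene except Apc, and triangles (replicates 3) lie apart in genes such as Fzd3, Fzd5, Fzd8, Ctnnb1 and Axin2.

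The arrays fitted the label of neural progenitor cultures in the genes that define them. All 9 measured stem and progenitor markers, among them Nes, Sox2, Egfr and Fabp7, were above the reference level on all 6 arrays. Of the glial markers, 7 of 8 for astrocytes and 8 of 8 for the oligodendrocyte lineage were above it on every array. Over all genes this share was 57.9%. Among these, Mag (means of 5.36 in PBS and 5.63 in MG) and Mog (5.60 and 5.58) lay near the reference level. Neuronal markers were above it in 7 of 8. For other cell types the counts on all arrays were 1 of 6 for choroid plexus, 2 of 8 for endothelial cells and 3 of 8 for microglia. They were 3 of 6 for ependymal cells and 4 of 9 for pericytes, smooth muscle and fibroblasts. Some genes of these lists were well above the level, such as Acta2 (means of 9.72 in PBS and 10.48 in MG), Foxj1 (7.73 and 7.85) and Cd68 (7.35 and 7.24). The counts therefore do not show that a cell type was absent. The mean log2 level of the endothelial list ran from 4.88 to 5.20 in PBS and from 4.89 to 5.08 in MG. Genes of cell division separated the arrays numbered 3 from the other 4, with all 11 measured members, Mki67, Top2a and Mcm2 among them, higher on both arrays numbered 3 than on any other array. The mean level of this list, after centring each gene on its 6-array mean, reached 0.41 (PBS) and 0.43 (MG) on these 2 arrays, with the other 4 lying from -0.38 to -0.11. Array medians over all probe sets ran only from 5.25 to 5.42.

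No Wnt pathway gene passed limma's moderated test of MG against PBS, either after Benjamini-Hochberg adjustment or at an unadjusted p under 0.05. Over all 22180 genes, 0 (0.0%) passed after adjustment and 712 (3.21%) had an unadjusted p under 0.05. The ordinary linear model without moderation also gave 0 after adjustment and 712 unadjusted, of which 395 were shared. With the replicate number as a block, 0 of the 35 Wnt genes and 4.79% of all genes had an unadjusted p under 0.05. Among Wnt genes, 23 had a higher and 12 a lower mean after MG, where 53.8% of all genes had a higher mean. The median log2 difference of the Wnt genes was 0.06, against 0.01 over all genes tested. Among the 33 Wnt genes whose mean exceeded the reference level in PBS and in MG, single differences ran from -0.14 (Nkd1) to 0.35 (Wnt7b), and every Wnt gene had an adjusted p of 0.9998. The 95% confidence intervals of the 35 differences all lay between -0.83 and 0.74. No interval, taken gene by gene and without correction for their number, reached a change of 2-fold in either direction. Over all genes, the intervals of 604 of 22180 extended beyond that size, so this is not particular to Wnt genes. All these intervals cover only the spread between the arrays. Without both arrays numbered 3, 17 Wnt genes had a higher and 18 a lower mean and the median difference was -0.01, where 50.7% of all genes had a higher mean. The sign turned in 12 genes, namely Wnt5a, Wls, Fzd2, Fzd3, Fzd8, Lgr4, Dkk1, Dkk3, Znrf3, Dvl2, Lef1 and Sp5. Over all genes it turned in 5046 of 22180. Several of these Wnt genes had very small differences with all arrays, such as Dkk1 (0.007) and Sp5 (-0.007).

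**Figure D2:**
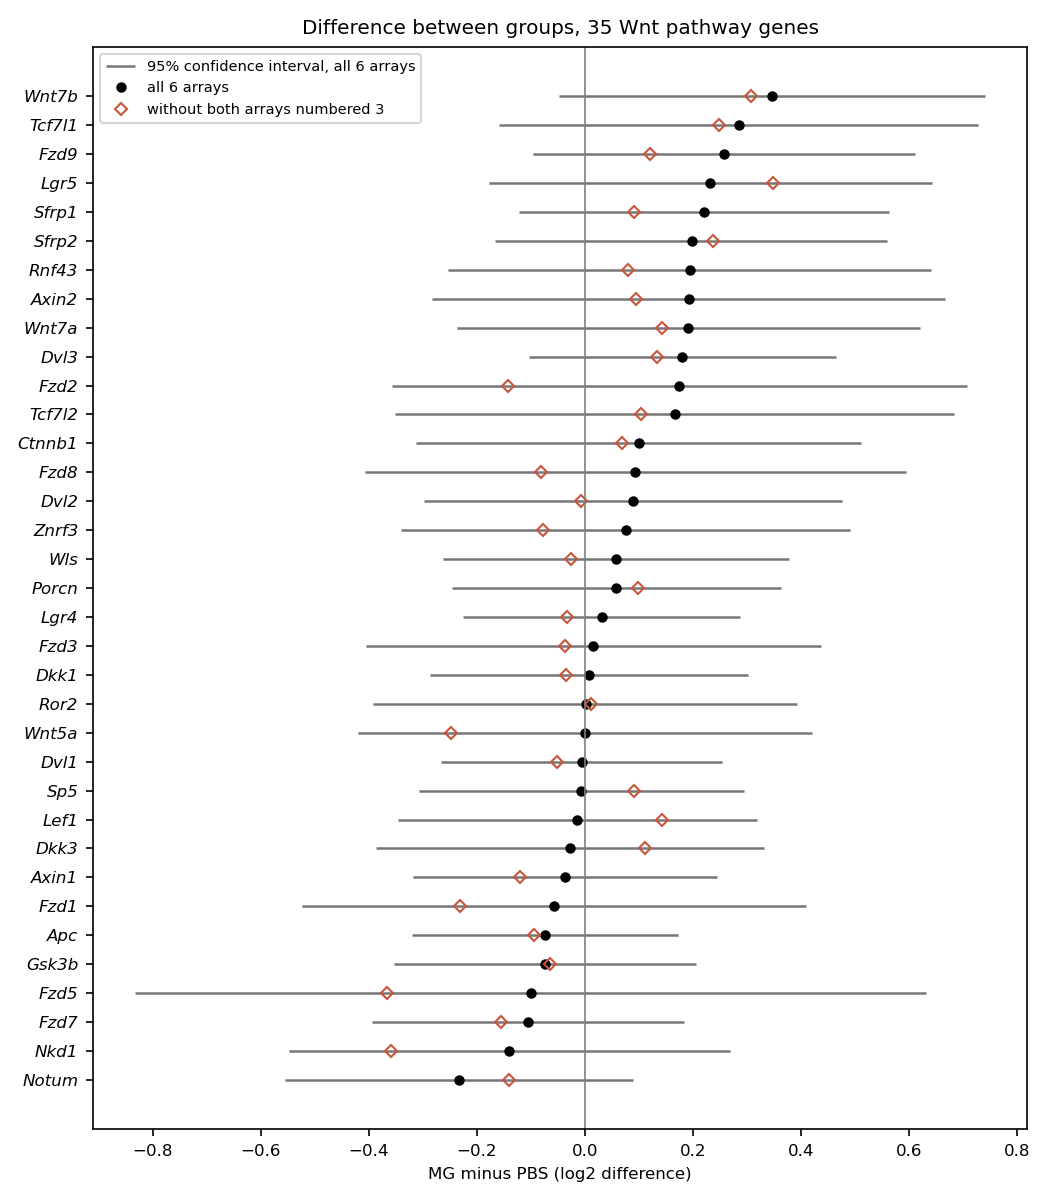
Log2 difference of MG minus PBS (horizontal axis) for the 35 Wnt pathway genes, with 95% confidence intervals from limma on all 6 arrays (black points and grey lines) and the difference without both arrays numbered 3 (open diamonds). Every interval includes 0, and the points run from -0.23 for Notum, which is not above the reference level in MG, to 0.35 for Wnt7b.

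Among the ligands, Wnt7b came closest to separating the groups, while Wnt5a and Wnt7a had smaller differences. Wnt7b, a ligand known for its part in forebrain blood vessel growth and progenitor biology, was at 8.07, 8.62 and 8.17 in PBS replicates 1 to 3 and at 8.80, 8.51 and 8.60 in MG. PBS replicate 2 lay above 2 of the 3 MG values, so the groups overlapped. The means were 8.29 ± 0.30 (SD, n = 3) and 8.63 ± 0.15 (SD, n = 3). Wnt7b thus differed by 0.35 (log2), with a standard error of 0.17 and a 95% interval from -0.05 to 0.74 (unadjusted p = 0.0779 in limma). It was 0.51 without PBS replicate 2 (unadjusted p = 0.0122 in limma, adjusted p = 1.0) and 0.31 without both arrays numbered 3. Without PBS replicate 2, 596 of 22180 genes had an unadjusted p under 0.05 in limma. With single arrays left out the Wnt7b difference ran from 0.235 to 0.514. Wnt7a, the close relative of Wnt7b, was at 7.15, 7.43 and 7.60 in PBS and 7.56, 7.30 and 7.89 in MG, with both arrays numbered 3 above the other 4. It differed by 0.19 on the log2 scale (standard error 0.19). Wnt5a, the main ligand of the beta-catenin-independent branch, was at 8.34, 8.14 and 7.86 in PBS and 7.82, 8.17 and 8.35 in MG. Replicate 3 was the lowest of the PBS arrays and the highest of the MG arrays, and the log2 difference was 0.00 (95% interval -0.42 to 0.42). Without both arrays numbered 3 the Wnt5a difference was -0.25. The secretion genes Porcn, which encodes the acyltransferase, and Wls, which encodes the carrier, each differed by 0.06, with standard errors of 0.13 and 0.14. Porcn was at 8.84, 8.59 and 8.60 in PBS and 8.84, 8.78 and 8.57 in MG, and Wls at 9.21, 9.50 and 9.07 in PBS and 9.28, 9.37 and 9.30 in MG. Both pairs of groups overlapped.

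In 9 of 10 receptor genes the difference between groups was smaller than the pooled standard deviation within groups, Fzd9 being the exception. The same count was not made over all genes, so it is not a result about receptors. Frizzled receptors bind the ligand, Ror2 is a receptor tyrosine kinase for Wnt5a, and Lgr4 and Lgr5 bind R-spondins, which protect Frizzleds from removal. Of 10 receptor genes, 7 had a higher and 3 a lower mean after MG, and without both arrays numbered 3 the counts were 3 and 7. Over all genes the shares with a higher mean were 53.8% and 50.7%. The log2 differences of the receptor genes ran from -0.11 (Fzd7) to 0.26 (Fzd9). Fzd5 had the widest range of the 35 genes, 1.32 log2 units from lowest to highest array. It was at 6.89, 7.22 and 7.40 in PBS and 6.51, 6.86 and 7.83 in MG. MG replicate 3 was the highest array and MG replicate 1 the lowest, so the MG values surrounded those of PBS. Fzd5 differed by -0.10 (standard error 0.32) with all arrays and by -0.37 without both arrays numbered 3 (unadjusted p = 0.0866 in limma). Its difference was -0.48 without MG replicate 3 alone (unadjusted p = 0.0363 in limma, adjusted p = 0.9995). There 940 of 22180 genes had an unadjusted p under 0.05 in limma. The sign of Fzd5 turned with some other single arrays left out, reaching 0.18 without MG replicate 1.

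Fzd3, which also serves axon guidance and planar polarity, was at 10.50, 10.45 and 9.96 in PBS and 10.50, 10.37 and 10.08 in MG. Fzd8 was at 7.85, 7.88 and 7.10 in PBS and 7.72, 7.84 and 7.55 in MG. Fzd1 was at 8.64, 8.35 and 7.83 in PBS and 8.23, 8.30 and 8.12 in MG. In these 3 Frizzled genes the arrays numbered 3 were the lowest in both groups, and the log2 differences between groups were 0.02 (Fzd3), 0.09 (Fzd8) and -0.06 (Fzd1). Ror2 had the same order, at 7.83, 7.76 and 7.44 in PBS and 7.69, 7.92 and 7.42 in MG, with a difference of 0.00 (95% interval -0.39 to 0.39). Fzd2 differed in its pattern, at 7.06, 7.23 and 6.58 in PBS and 6.71, 7.30 and 7.39 in MG, so that replicate 3 was the lowest of PBS and the highest of MG. Its log2 difference was 0.17 with all arrays and -0.14 without both arrays numbered 3. Fzd9 was at 6.54, 6.40 and 6.12 in PBS and 6.76, 6.42 and 6.65 in MG, with a difference of 0.26 (standard error 0.15) against a pooled standard deviation of 0.19. Fzd7 was at 7.66, 7.82 and 7.77 in PBS and 7.48, 7.69 and 7.76 in MG, a log2 difference of -0.11 (standard error 0.12) with overlapping groups. Lgr4 was steady, between 8.27 and 8.43 on all 6 arrays. Lgr5 lay near the reference level, with a PBS mean of 5.22 ± 0.30 (SD, n = 3) and an MG mean of 5.46 ± 0.18 (SD, n = 3), and its second, dimmer probe set gave a difference of 0.00 against 0.23.

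Secreted inhibitors showed no common direction. Sfrp1 and Sfrp2 encode decoys that bind Wnt ligands, Dkk1 an inhibitor that binds the LRP co-receptors, and Notum an enzyme that removes the lipid from Wnt. Sfrp1 was at 9.27, 9.43 and 9.27 in PBS and 9.28, 9.60 and 9.75 in MG. MG replicate 1 lay within the PBS values and the other 2 above them, giving a difference of 0.22 (standard error 0.15). Without MG replicate 1 the Sfrp1 difference was 0.35 (unadjusted p = 0.0357 in limma, adjusted p = 0.9992). There 956 of 22180 genes had an unadjusted p under 0.05 in limma. With single arrays left out the Sfrp1 difference ran from 0.12 to 0.35. Sfrp2 was at 7.37, 7.57 and 7.26 in PBS and 7.85, 7.57 and 7.37 in MG, a difference of 0.20 (standard error 0.16). Notum was at 5.01, 5.25 and 5.17 in PBS and 4.87, 5.12 and 4.75 in MG. These values lie around the reference level, with the MG mean below it, so no fold is given. The measured values differed by -0.23 (standard error 0.14), and its other probe set, dimmer still, differed by 0.10 in the opposite direction. Without MG replicate 2 the Notum difference was -0.34 (unadjusted p = 0.0499 in limma, adjusted p = 0.9995). There 814 of 22180 genes had an unadjusted p under 0.05 in limma. With single arrays left out the Notum difference ran from -0.34 to -0.15. Dkk1, at 5.03 ± 0.17 (SD, n = 3) and 5.04 ± 0.06 (SD, n = 3), differed by 0.01. Dkk3, a more distant relative of Dkk1, had means of 6.16 ± 0.10 (SD, n = 3) and 6.13 ± 0.26 (SD, n = 3).

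The feedback genes did not move as a group. Rnf43 and Znrf3 encode ubiquitin ligases that remove Frizzleds from the cell surface, and Nkd1 encodes an inhibitor that binds Dishevelled. Rnf43 was at 6.57, 6.27 and 5.84 in PBS and 6.58, 6.42 and 6.26 in MG, with both arrays numbered 3 below the other 4. Znrf3 had the opposite order, at 7.99, 8.09 and 8.17 in PBS and 7.90, 8.03 and 8.55 in MG, with both arrays numbered 3 above the other 4. The log2 differences were 0.19 (standard error 0.19) for Rnf43 and 0.08 (standard error 0.18) for Znrf3. Nkd1 was at 7.93, 8.02 and 7.89 in PBS and 7.51, 7.72 and 8.18 in MG. MG replicates 1 and 2 were below all PBS arrays and MG replicate 3 above them. The Nkd1 difference was -0.14 (standard error 0.18) over all arrays and -0.36 without both arrays numbered 3 (unadjusted p = 0.0378 in limma, adjusted p = 0.9995). There it was the single gene among the 35 below 0.05. Without these arrays 4.81% of all genes had an unadjusted p under 0.05.

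Transducers of the signal had some of the tightest values in the list. Apc, a scaffold of the destruction complex, was the only Wnt gene whose groups did not overlap, at 10.71, 10.66 and 10.63 in PBS and 10.57, 10.61 and 10.59 in MG. The groups did not overlap in 7.34% of all genes, in 3.31% with MG lower and in 4.03% with MG higher. Apc differed by -0.07 (standard error 0.11, unadjusted p = 0.506 in limma), and an exact permutation test, two-sided, gave p = 0.1, below which 3 against 3 arrays cannot go. Gsk3b, the kinase of the complex, was at 11.62, 11.57 and 11.44 in PBS and 11.56, 11.51 and 11.34 in MG, a difference of -0.07 (95% interval -0.35 to 0.21). Ctnnb1, which encodes beta-catenin, was at 11.35, 11.41 and 10.94 in PBS and 11.59, 11.31 and 11.10 in MG, a difference of 0.10 (standard error 0.18). In Gsk3b and Ctnnb1 the arrays numbered 3 were the lowest. The Ctnnb1 signal is that of its RNA and does not show the amount of stabilised protein.

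Axin1 and Axin2 encode scaffolds of the same complex, Axin2 being the member induced by the pathway. Axin1 stayed between 7.39 and 7.66 on all arrays, with a log2 difference of -0.04 (standard error 0.12). Axin2 was at 7.42, 7.27 and 7.68 in PBS and 7.31, 7.56 and 8.06 in MG, with both arrays numbered 3 above the other 4. Its difference was 0.19 (95% interval -0.28 to 0.67) with all arrays and 0.10 without both arrays numbered 3, and 0.08 in its second, dimmer probe set. Among the Dishevelled genes, Dvl3 had means of 10.27 ± 0.14 (SD, n = 3) and 10.45 ± 0.07 (SD, n = 3), a difference of 0.18 (standard error 0.12). Dvl1 differed by -0.01 and Dvl2 by 0.09. Dvl2 was at 7.19, 7.34 and 7.46 in PBS and 7.18, 7.34 and 7.74 in MG, with both arrays numbered 3 above the other 4.

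Of the nuclear factors, Tcf7l1, mostly a repressor of Wnt targets and known from stem cells, had the largest difference. It was at 8.21, 8.13 and 8.56 in PBS and 8.28, 8.56 and 8.92 in MG. In each group replicate 3 was the highest, and PBS replicate 3 lay level with MG replicate 2. Tcf7l1 differed by 0.28 (standard error 0.19, unadjusted p = 0.177 in limma) and 0.25 without both arrays numbered 3. Tcf7l2 was at 7.59, 7.58 and 7.95 in PBS and 7.40, 7.98 and 8.24 in MG, a difference of 0.17 (standard error 0.22). Lef1 was at 5.06, 4.89 and 5.07 in PBS and 5.08, 5.16 and 4.74 in MG, around the reference level, so no fold is given. Sp5, a target gene and repressor, had means of 5.45 ± 0.06 (SD, n = 3) and 5.44 ± 0.18 (SD, n = 3).

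In some Wnt genes both arrays numbered 3 stood apart from the other 4, as they did in many genes outside the list. Both arrays numbered 3 lay outside the range of the other 4 in 12 of 35 Wnt genes, where 31.4% of all genes tested did so, and 41.3% of those whose mean passed the reference level in PBS and in MG alike. They were above in 5 (Wnt7a, Fzd5, Znrf3, Dvl2 and Axin2), where 15.7% of all genes were, and below in 7 (Fzd1, Fzd3, Fzd8, Ror2, Rnf43, Gsk3b and Ctnnb1), where 15.7% were. This share is near that of the genes as a whole and is not a result about Wnt genes. Axin2 in replicate 3 exceeded the mean of the other 2 arrays of its group by 0.33 in PBS and by 0.62 in MG. For Tcf7l2 these distances were 0.37 and 0.56, and for Tcf7l1 they were 0.39 and 0.50. Ctnnb1 stood at -0.44 and -0.34 on the same measure, Fzd3 at -0.51 and -0.35, and Fzd8 at -0.76 and -0.24. Nkd1 (-0.09 and 0.56), Fzd2 (-0.57 and 0.38) and Wnt5a (-0.38 and 0.36) went opposite ways in the 2 groups. The cell division genes stood between 0.34 and 1.05 in PBS and between 0.19 and 1.31 in MG. Astrocyte markers were below the other 4 arrays on both arrays numbered 3 in 6 of 8 genes, and the part of either in the Wnt values was not tested. The labels give no reason for the separation of these arrays. The pooled standard deviation within groups had a median of 0.23 over the Wnt genes, against 0.19 over all genes.

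**Figure D3:**
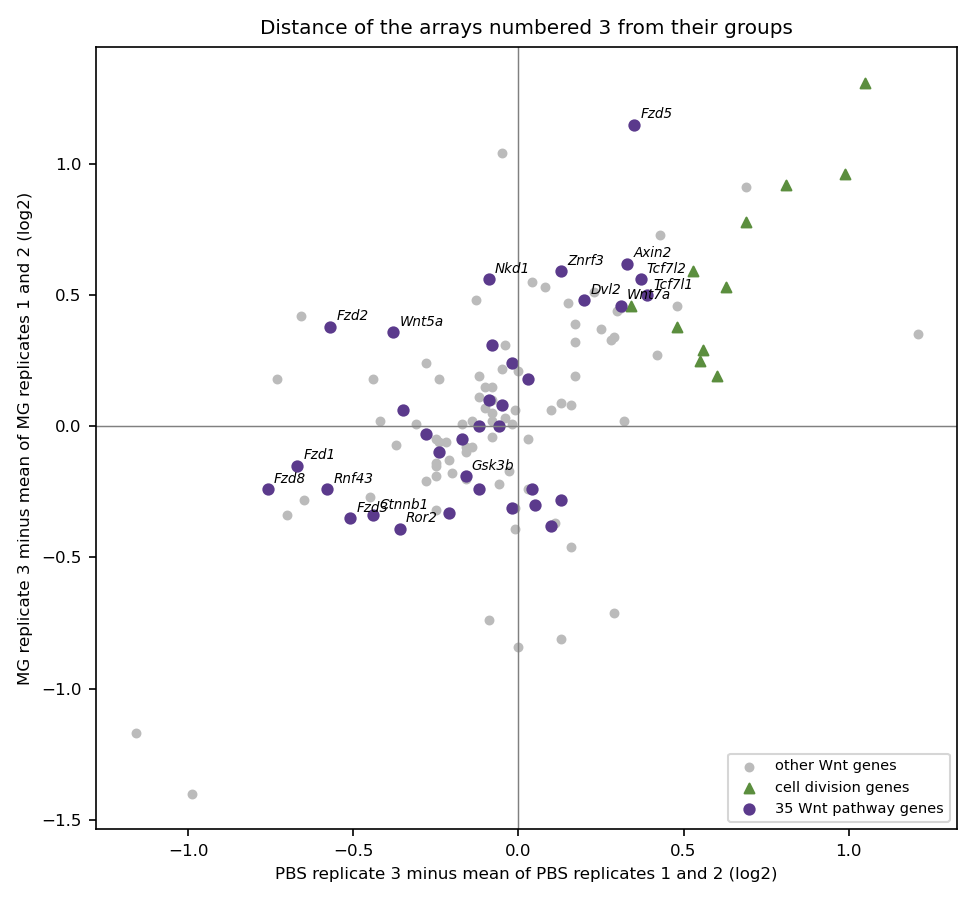
Distance of replicate 3 from the mean of replicates 1 and 2 of its own group (log2), in PBS on the horizontal and in MG on the vertical axis, for the 35 Wnt pathway genes (purple), the other Wnt genes (grey) and 11 cell division genes (green triangles). All cell division genes lie to the upper right, Axin2, Tcf7l1, Tcf7l2, Wnt7a and Fzd5 lie there too, and Fzd1, Fzd3, Fzd8, Ror2, Rnf43 and Ctnnb1 lie to the lower left.

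A wider list held 82 other Wnt genes, of which 80 were tested and 69 exceeded the reference level in the PBS mean and in the MG mean, as 61.8% of all genes did. None passed limma's test after Benjamini-Hochberg adjustment. At an unadjusted p under 0.05 there was 1 with a higher mean after MG, Celsr3, and 1 with a lower mean, Dact1, where over all genes 1.81% were higher and 1.4% lower at that p. In all, 49 had higher and 31 lower means, with a median log2 difference of 0.04, where 53.8% of all genes had a higher mean. Without both arrays numbered 3 the counts were 39 and 41, where 50.7% of all genes had a higher mean. The groups did not overlap in 3 genes with higher values after MG (Celsr3, Tnks and Tle1), against 4.03% of all genes, and in 2 with lower values (Dact1 and Lgr6), against 3.31%. The other ligand genes were mostly dim, with 7 of 16 above the reference level in both groups.

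Dact1, which encodes a protein that binds Dishevelled, was at 8.0, 7.24 and 7.78 in PBS and 7.15, 6.88 and 7.10 in MG. All MG values lay below all PBS values. Dact1 was 1.54-fold lower in MG, a log2 difference of -0.62 (standard error 0.20; unadjusted p = 0.0143 and adjusted p = 0.9998 in limma). Its values without 1 array ran from -0.84 to -0.46, and without both arrays numbered 3 the difference was -0.60 (unadjusted p = 0.058 in limma). With its 2 probe sets averaged it was -0.41. Lgr6, an R-spondin receptor, was at 6.27, 5.96 and 5.90 in PBS and 5.81, 5.82 and 5.75 in MG, a difference of -0.25 with no overlap. Wnt9b was at 6.03, 6.02 and 6.01 in PBS and 6.06, 5.69 and 5.48 in MG, so that MG replicate 1 was the highest of all, and differed by -0.27.

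All 9 planar polarity genes had higher means after MG, 6 of 9 without both arrays numbered 3. Over all genes the shares with a higher mean were 53.8% and 50.7%. The 9 genes were read on the same arrays and are not replicates, and their common direction was not tested. Their log2 differences ran from 0.02 to 0.42 with a median of 0.20. The smallest, Vangl1 and Daam1, changed sign with some single arrays left out. Celsr3, an atypical cadherin known from axon tract formation, was at 5.61, 5.69 and 5.94 in PBS and 6.11, 6.00 and 6.39 in MG, with no overlap. Celsr3 was 1.34-fold higher in MG, by 0.42 on the log2 scale (standard error 0.15; unadjusted p = 0.0227 and adjusted p = 0.9998 in limma), and 0.41 without both arrays numbered 3. Vangl2, a core membrane protein of this branch, was at 8.34, 8.61 and 8.42 in PBS and 8.60, 8.69 and 8.86 in MG, a difference of 0.26 (unadjusted p = 0.0831 in limma). MG replicate 1 lay just under PBS replicate 2. Celsr1 was at 5.77, 5.83 and 5.70 in PBS and 6.06, 5.83 and 6.01 in MG, a difference of 0.20 (standard error 0.12). Of the 12 nuclear cofactor genes, 11 had higher means after MG, with a median of 0.07, and 8 of 12 without both arrays numbered 3. The same shares over all genes and the same limit apply to this count. Of 6 frequent target genes, including Ccnd1 and Myc, 2 had higher and 4 lower means.

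**Figure D4:**
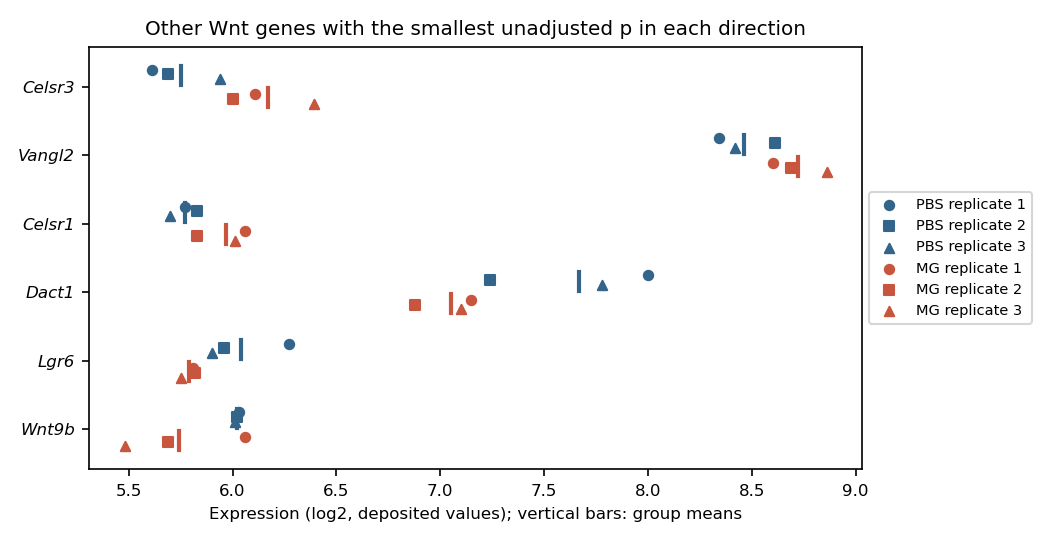
Expression of 6 other Wnt genes on each array (deposited log2 values, horizontal axis), the 3 with the smallest unadjusted p in each direction, with PBS in blue, MG in red, marker shape giving the replicate number and vertical bars the group means. The groups do not overlap in Celsr3, Dact1 and Lgr6, and they overlap in Vangl2, Celsr1 and Wnt9b.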

How the data were processed

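Values were deposited by the authors in 1 table of 41345 probe sets and 6 arrays, on a log2 scale inferred from their range (0.73 to 13.81). Per the submitters' processing notes, the software was Partek 6.6. How background was corrected and arrays were normalised and summarised was not given in the sources used here, nor was the genome build behind the probe sets.

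Probe sets were named through the platform annotation: 23521 named 1 gene, 1814 several, and 16010 were unnamed here. No symbol needed updating against RefSeq. The brightest probe set of a gene was used, with no filter on dim genes. MG was compared with PBS by a linear model of group alone with moderated variances (limma 3.58.1, R 4.3.3, two-sided), with Benjamini-Hochberg adjustment over 22180 genes. Differences are on the log2 scale, and the number of arrays limits their precision. The steps were tested on simulated data with independent noise for each gene, without the shared separation of the arrays numbered 3. Each of 10 runs changed 50 genes per fold, at 1.5-fold, 2-fold, 3-fold and 4-fold. Recovery with fewer changed genes was not simulated. After adjustment, 15.4% of 1.5-fold, 61.8% of 2-fold and 85.2% of 3-fold changes were recovered, with 5.9 false calls per run. Smaller changes would thus mostly be missed.

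The Wnt genes and all lists were chosen with earlier results of these data known. Named were all Wnt genes measured and, of the other Wnt genes, the 3 with the smallest unadjusted p per direction, plus any past the adjusted threshold. Values array by array were given at least for Wnt genes with no overlap between groups, an unadjusted p under 0.05, or both arrays numbered 3 outside the other 4. Alternatives covered dim genes, probe sets, normalisation, moderation, array weights, the replicate block and arrays left out. Promoter sequences are RefSeq's. Figures were drawn with matplotlib 3.10.9.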

Additional observations from a re-analysis of the deposited data

How the results depend on the processing

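No gene passed after adjustment in any of the 16 alternatives, and none of 560 values of Wnt genes did. The sign held in 495 of these and turned in 65. Alternatives that changed only the moderation, the block or the other features tested left the difference itself unchanged. In those the sign could not turn, so the 495 do not measure stability. The sign held under every alternative in 14 of the 35 Wnt genes, 10 with a higher and 4 with a lower mean after MG. The same count was not made over all genes. At an unadjusted p under 0.05 there were 712 of 22180 genes (3.21%), 1163 genes with array weights (5.24%), 276 of 14171 genes without dim ones (1.95%), and 1288 of all 41345 probe sets, unnamed ones included (3.12%). The first of these counts ran from 416 (without PBS replicate 1) to 956 with single arrays left out. The median of the Wnt genes, 0.058, was -0.008 without both arrays numbered 3 and ran from 0.001 (without PBS replicate 3) to 0.079 with single arrays left out. The number of Wnt genes at an unadjusted p under 0.05, 0 with all arrays, was 1 without both arrays numbered 3 (Nkd1) and ran from 0 to 2 with single arrays left out. These were Wnt7b without PBS replicate 2, Sfrp1 without MG replicate 1, Notum without MG replicate 2, and Fzd5 and Nkd1 without MG replicate 3. With an array left out the tests use fewer samples; other causes were not tested.

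The labels do not say whether arrays of 1 number share a day or litter, so the numbers were not taken to pair the samples. Across genes, deviations from the group mean correlated at 0.22, 0.04 and 0.45 between the arrays numbered 1, 2 and 3. The deviations within a group sum to 0, so these correlations depend on each other. They cannot decide whether the samples are paired. The arrays numbered 3 had the highest correlation. With the replicate block, 0 genes passed after adjustment, 1063 had an unadjusted p under 0.05, and 0 Wnt genes did. Not every sample correlated best with its own number.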
